A study of Mus musculus with 2 samples.

Results

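Malat1, Neat1 and Kcnq1ot1, which are RNAs retained in the nucleus, and Gas5, Snhg1 and Snhg12, which are host genes of small nucleolar RNAs (snoRNAs), were examined in mouse peritoneal macrophages that lacked Lgmn or were wild type. The 6 genes were taken by name, and all 6 were found by Entrez identifier among the 15605 genes listed in either library. The macrophages came from C57BL/6 mice aged 6-8 weeks. The knockout library was from lgmn-/- mice and the wild type library from mice with intact Lgmn, the gene of the lysosomal protease legumain. Before RNA was taken, both had been cultured for 4 days together with EO771, a mammary carcinoma line of C57BL/6 origin. Each genotype had 1 library, so the differences have no replicate behind them and no p-value is given. How many mice were pooled, which exons were deleted, whether a membrane separated the cells, whether poly(A) RNA was selected and whether strand was kept are not given in the sources used here.

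Long non-coding RNAs of these kinds stay largely in the nucleus or are made mainly for what their introns contain. Malat1 collects in nuclear speckles, bodies rich in splicing factors, and Neat1 is the scaffold around which paraspeckles assemble. Kcnq1ot1 is transcribed from the paternal chromosome only, antisense to Kcnq1, and silences neighbouring imprinted genes in cis. The introns of a host gene carry snoRNAs, which guide chemical modification of ribosomal and other RNAs, while the spliced exons are commonly removed by nonsense-mediated decay when they reach ribosomes. Host transcripts often begin with a terminal oligopyrimidine (TOP) sequence, a run of C and T bases shared with ribosomal protein mRNAs.

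Depth was close, at 11740202 estimated counts in the knockout library (14756 genes listed) and 11885784 in the wild type library (14681 genes listed). Lgmn (Entrez 19141, chr12:102394082-102439728 in GRCm38) had 426 estimated counts in the knockout library, against 23550 in the wild type library, and was 64.3-fold lower (95% interval 58.6 to 71.1). The order of the libraries matched their genotype labels. Macrophage markers were present in both, with a summed count of 250583 over 10 genes in the knockout library and 271805 in the wild type library. The 8 T and NK cell markers summed to 747 counts in the knockout library and 340 in the wild type library, and 3 of the 6 with at least 50 counts were at least 2-fold higher. The 7 fibroblast markers summed to 299 counts in the knockout library and 1005 in the wild type library. All 5 with at least 50 counts were at least 2-fold lower. Among all 9498 genes with that many counts, 6.05% were at least 2-fold higher and 1.74% lower. The B cell, mesothelial and epithelial carcinoma lists had smaller sums. B cell markers summed to 41 knockout and 23 wild type counts. Mesothelial markers summed to 7 knockout and 93 wild type counts, and epithelial carcinoma markers to 30 knockout and 25 wild type counts. Neutrophil markers summed to 985 knockout and 609 wild type counts. Nearly all of these came from S100a8 (456 knockout, 361 wild type) and Csf3r (515 knockout, 241 wild type). The other neutrophil markers had no more than 12 counts in either library. Of the defining markers, 3 of 5 mesothelial genes were at 0 in the knockout library and 0 of 5 in the wild type library. Their part in the results was not tested. In bulk RNA of this kind, fewer cells of a type and less RNA per cell cannot be told apart.

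Together the 3 nuclear RNAs took up more of the knockout library and the 3 host genes less. Malat1, Neat1 and Kcnq1ot1 summed to 5138 estimated counts, or 438 CPM (counts scaled to the library total), in the knockout library, against 1978 counts, or 166 CPM, in the wild type library. Gas5, Snhg1 and Snhg12 summed to 497 counts, or 42.3 CPM, in the knockout library, against 679 counts, or 57.1 CPM, in the wild type library. Ratios below are knockout over wild type, taken after TMM scaling of the libraries (a trimmed mean factor that sets the bulk of genes equal) and after adding 1 scaled count to each. Of the 6 genes, 2 were at least 2-fold higher, Malat1 and Neat1, and 0 were at least 2-fold lower. The same comparison over all 9498 genes that reached 50 estimated counts in either library gave 6.05% higher by 2-fold or more and 1.74% lower. An interval beside a ratio is the 95% Clopper-Pearson interval of the knockout share of the counts. It covers counting error alone and holds no variation between mice or preparations. Reads counted without molecular identifiers need not be independent molecules, so it can be too narrow even for counting error.

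**Figure D1:**
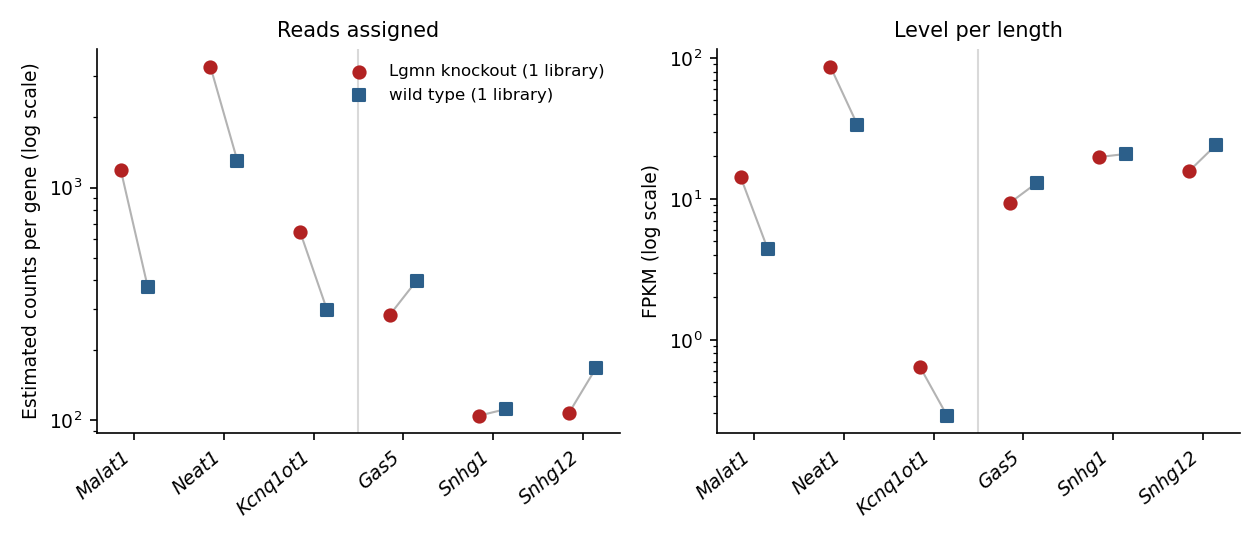
Estimated counts (left) and FPKM (right) of each RNA on log scales, with 1 point per library, Lgmn knockout as red circles left of wild type as blue squares. The nuclear RNAs sit higher in the knockout library, with Neat1 at an FPKM of 86.6 in knockout against 33.6 in wild type, while each snoRNA host sits lower, with Snhg12 at 15.7 in knockout against 24.1 in wild type.

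In these libraries the ratio of a gene moved with the length of its transcript, and the 6 RNAs lie along almost the whole range of lengths. Across the 9498 genes the Spearman correlation of transcript length with the log2 ratio was 0.61, as a description across genes of the same pair of libraries. In 20 groups of increasing length, the median log2 ratio was -0.42 in the group of the shortest transcripts, of 109 to 825 bases, and 0.94 in the group of the longest, where 211 of 475 genes were at least 2-fold higher. Snhg1 and Snhg12 belonged to the first of these groups and Kcnq1ot1 to the last. A length-adjusted ratio, in which a lowess trend on log2 length is subtracted, is therefore also given, for the 6 RNAs and for the lists and named genes around them. With that adjustment, 1 of the 6 genes was at least 2-fold higher, Neat1, and 1 at least 2-fold lower, Kcnq1ot1. Of all genes, 2.14% and 1.9% passed in those directions. The Kcnq1ot1 value rests on a trend extended past every other gene. Set against the median of its length group, its log2 ratio was -0.05. GC content had a Spearman correlation of -0.02 with the log2 ratio and of 0.18 with the length-adjusted ratio across 9429 genes. The GC content of Malat1, Kcnq1ot1, Gas5 and Snhg1 was 40.3% to 42.5%, and that of Neat1 and Snhg12 was 49.2% and 49.8%, where the median of all genes was 49.98%. Its part in the adjusted ratios was not tested.

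**Figure D2:**
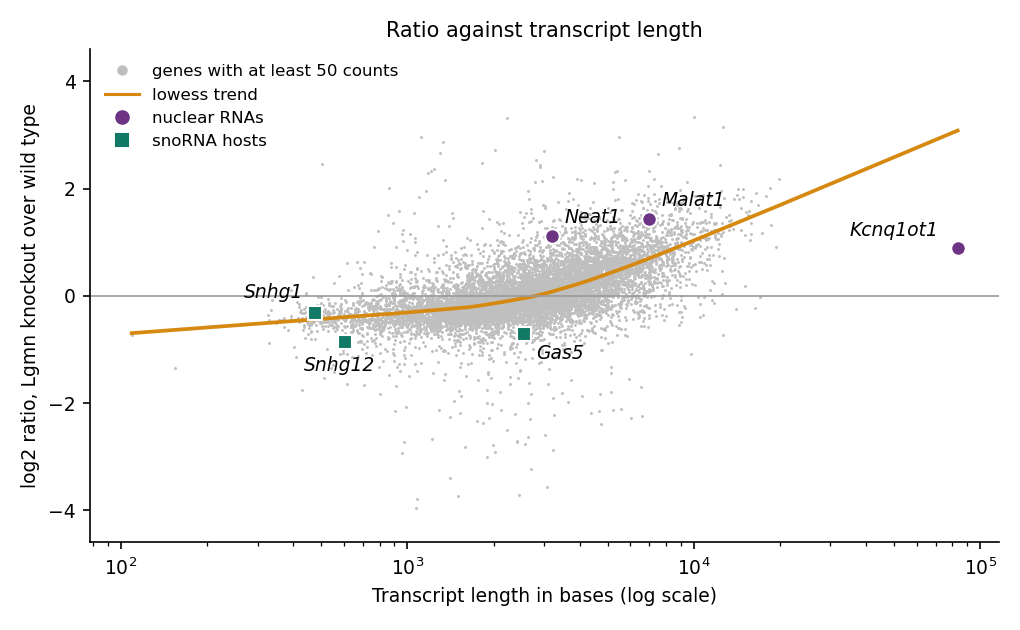
Log2 ratio of Lgmn knockout over wild type against transcript length in bases on a log axis, for the 9498 genes compared (grey points, 4 outside the drawn range), with the lowess trend as a line. Malat1 and Neat1 lie above the trend, Gas5 and Snhg12 below it, Snhg1 close to it, and Kcnq1ot1 lies at 83437 bases, beyond every other gene.

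Malat1, Neat1 and Kcnq1ot1 had positive log2 ratios of 1.44, 1.12 and 0.89. The 3' ends of Malat1 and of the long form of Neat1 are shown because both RNAs lack an ordinary poly(A) tail there. An A-rich tract folds back on a pair of U-rich motifs into a triple helix that protects the end, and RNase P cuts the RNA just after it. The last 100 bases up to that cut, from the GENCODE vM21 transcripts of GRCm38, are given 5' to 3' in DNA letters on the minus strand, with the U-rich motifs (TTTCTTTT and TTTTGCTTTT, with the T bases beside them) and the A-rich tract in capitals. The third line is the 3' end of the short, polyadenylated form of Neat1, with its AATAAA poly(A) signal in capitals.
Malat1, chr19:5795982-5796081: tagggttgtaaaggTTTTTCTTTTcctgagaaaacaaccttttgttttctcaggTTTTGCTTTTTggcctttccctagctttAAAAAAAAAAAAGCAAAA
Neat1 long form, chr19:5824708-5824807: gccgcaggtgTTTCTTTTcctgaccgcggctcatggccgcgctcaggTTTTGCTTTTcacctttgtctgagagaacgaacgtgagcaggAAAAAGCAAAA
Neat1 short form, chr19:5842307-5842366: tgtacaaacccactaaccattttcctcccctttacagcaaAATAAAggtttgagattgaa
Of 141767 GENCODE transcripts searched on their own strand, 618 held AAAAAGCAAAA, and 2 of these, Malat1 and Neat1, also held TTTCTTTT and TTTTGCTTTT in the 100 bases that ended there. The letters searched for were read from the end of the long Neat1 transcript. Its own match was therefore fixed in advance, and only that of Malat1 was found by the search. The match of letters describes the transcripts and measures no structure in these cells. In RefSeq, the gene of the small tRNA-like RNA Mascrna, at chr19:5795924-5795981, begins 0 bases after the Malat1 tract.

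Malat1 (Entrez 72289, chr19:5795690-5802672, minus strand, a single exon of 6982 bases in the files) had 1190 estimated counts (FPKM 14.2) in the knockout library, against 375 counts (FPKM 4.42) in the wild type library. It was 2.72-fold higher (2.42 to 3.07), the highest ratio of the 6 RNAs. By FPKM it stood in place 32 of 956 listed long non-coding RNA genes in the knockout library and in place 92 in the wild type library. Long transcripts in general had positive ratios here, and of the 474 other genes of 5921 to 7298 bases, 27 had a higher ratio than Malat1 and 97 were at least 2-fold higher. The length-adjusted log2 ratio was 0.74 (0.58 to 0.92), or 1.67-fold, under the 2-fold threshold. The 5 genes nearest to it in length, Rptor, Usp32, Zdhhc3, Wdr81 and Zfx, had log2 ratios of 0.13 to 1.16, all below that of Malat1.

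Neat1 (Entrez 66961, chr19:5824708-5845480, minus strand) was the most abundant of the 6 in both libraries. It had 3303 estimated counts (FPKM 86.6) in the knockout library, against 1305 counts (FPKM 33.6) in the wild type library. It was 2.17-fold higher (2.04 to 2.32). Among listed long non-coding RNA genes it stood in place 6 by FPKM in the knockout library and in place 15 in the wild type library. At the length given in the files it was a gene of middle size, where ratios centred near 0: among the 474 other genes of 2960 to 3217 bases the median was 0.08, 11 were at least 2-fold higher and 9 had a higher ratio than Neat1. Its length-adjusted log2 ratio was 1.04 (0.95 to 1.13), or 2.05-fold. The 5 genes nearest in length, Trim14, Fbxl2, Ikbke, Sde2 and Tex10, had log2 ratios of -0.44 to 0.79, all below that of Neat1.

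The length of Neat1 depends on how its reads are divided between the isoforms. The short form builds no paraspeckle alone, while the long form is the scaffold, and both start at the same promoter, so the exons of the short form are also part of the long one. The files give a mean length of 3199 bases in the knockout library and 3208 bases in the wild type library, weighted by the isoform estimate of RSEM. With 3004 bases for the short GENCODE transcript and 20771 for the long, those lengths correspond to a long form that makes up 1.10% of Neat1 molecules in the knockout library and 1.15% in the wild type library, or 7.12% of the reads in knockout and 7.45% in wild type. With the unspliced span of 3170 bases as the short form, the molecule shares were 0.164% in the knockout library and 0.219% in the wild type library. The short form supplied nearly all molecules in both libraries by either estimate, and per-isoform counts were not analysed here. If Neat1 is placed at 20771 bases, the trend at that length is higher and its adjusted log2 ratio is -0.60, so the sign of its length-adjusted ratio rests on the short form supplying the reads.

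Per length, Neat1 exceeded Malat1 by 6.10-fold in FPKM in the knockout library and by 7.61-fold in the wild type library. Their genes lie 22 kb apart on chromosome 19. Of 15 genes around them, 14 were listed and 12 had at least 50 counts, of which 1 passed 2-fold upward and 0 downward, with a median log2 ratio of 0.31. With the length trend subtracted the median was 0.25 and 0 passed in either direction. Over all genes, 6.05% passed upward and 1.74% downward, or 2.14% and 1.9% after the subtraction. Pcnx3, a membrane protein gene of 7281 bases, had 133 counts in the knockout library and 46 in the wild type library, a log2 ratio of 1.29 and a length-adjusted one of 0.56. Ltbp3, which encodes a protein that binds latent TGF-beta, had a log2 ratio of 0.70 and an adjusted one of 0.26, and Sipa1, a Rap GTPase-activating protein gene, had 0.63 and an adjusted 0.46.

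Kcnq1ot1 (Entrez 63830, chr7:143213111-143296547, minus strand, an unspliced RNA inside Kcnq1) had 645 estimated counts (FPKM 0.64) in the knockout library, against 299 counts (FPKM 0.29) in the wild type library. Its ratio was 1.85-fold (1.61 to 2.13), so it did not pass 2-fold. Scaling by library totals gave a log2 ratio of 1.12, past the threshold. Its 83437 bases are the longest transcript in the files, and the next longest among tested genes has 19827 bases, so its length-adjusted log2 ratio of -2.20 rests on a trend extended past every other gene. Set against the median of the 474 other genes of the longest group, it was -0.05, and 264 of them had a higher ratio. The 5 nearest in length, Kmt2d, Aak1, Slc8a1, Macf1 and Xist, had log2 ratios of 0.91 to 2.17, all above that of Kcnq1ot1. By FPKM it was the lowest of the 6 in both libraries.

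Because the strand of the reads is not given, reads from Kcnq1 introns and from Kcnq1ot1 cannot be told apart. Kcnq1 itself, a potassium channel gene, had 15 counts in the knockout library and 15 in the wild type library. Of 15 genes of the imprinted domain, 11 were listed and 6 had at least 50 counts. Their median log2 ratio was -0.40, with all 6 below 0 and 1 at least 2-fold lower, against 1.74% of all genes. The length-adjusted median was -0.34, with 5 of 6 below 0 and 1 at least 2-fold lower, against 1.9% of all genes. With library totals as the scaling the median was -0.16, with 4 of 6 below 0. The gene past 2-fold was Cd81, which encodes a tetraspanin of the cell surface, with 219 counts in the knockout library and 451 in the wild type library, 2.39-fold lower (2.04 to 2.83), with an adjusted log2 ratio of -1.03. Slc22a18, a transporter gene, had 47 and 73 counts in knockout and wild type, a log2 ratio of -0.84 and an adjusted one of -0.61. Cdkn1c, which encodes the cell cycle inhibitor p57 and is silenced on the paternal chromosome by Kcnq1ot1, had 6865 counts in the knockout library and 8038 in the wild type library, a log2 ratio of -0.45 and an adjusted one of -0.29.

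**Figure D3:**
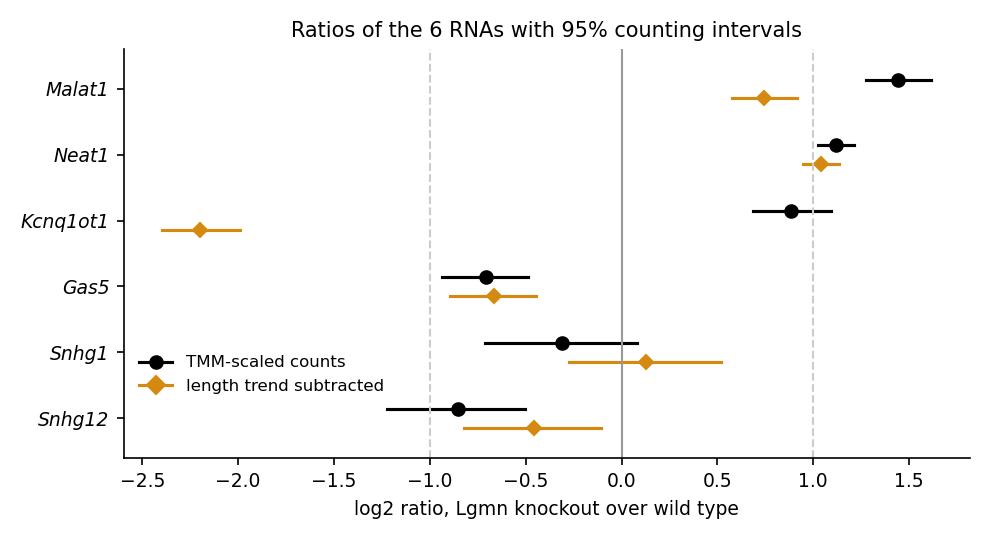
Log2 ratio of Lgmn knockout over wild type for each RNA with its 95% counting interval, from TMM-scaled counts (black circles) and after the length trend was subtracted (orange diamonds), with dashed lines at 2-fold. Neat1 stays past 2-fold at its deposited length, Malat1 moves to 0.74 and Snhg1 crosses 0. Kcnq1ot1 moves to -2.20 on a trend extended past every other gene.

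Gas5, Snhg1 and Snhg12 had log2 ratios of -0.71, -0.31 and -0.85, and none was 2-fold lower. The sequences around their transcription starts are shown because TOP transcripts are recognised by their first bases. The windows of 100 bases, 50 before the start to 50 from it, come from the RefSeq promoter table of GRCm38.p6 and are given 5' to 3' on the plus strand. Capitals mark a TATA sequence upstream and the run of C and T bases at or beside the annotated start.
Gas5, chr1:161035116-161035215: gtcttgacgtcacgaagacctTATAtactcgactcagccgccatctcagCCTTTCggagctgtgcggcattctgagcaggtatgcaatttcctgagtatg
Snhg1, chr19:8723437-8723536: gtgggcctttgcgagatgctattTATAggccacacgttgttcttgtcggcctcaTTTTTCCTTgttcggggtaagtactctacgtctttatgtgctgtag
Snhg12, chr4:132308628-132308727: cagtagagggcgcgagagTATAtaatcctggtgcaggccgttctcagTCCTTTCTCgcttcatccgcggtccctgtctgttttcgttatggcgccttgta
TATA, searched on the same strand from 40 to 16 bases before the start, was present in all 3, at 29 bases before the start in Gas5, 27 in Snhg1 and 32 in Snhg12, against 5.91% of 32851 RefSeq promoters. The C and T runs had 6 bases in Gas5, 9 in Snhg1 and 9 in Snhg12. A run of at least 7 such bases, which Gas5 lacks, was held by 16.3% of all promoters, by 44.1% of 34 promoters of TOP mRNAs and by 37.5% of 16 promoters of other snoRNA host genes. A run of at least 5 was held by 38.0% of all promoters, 58.8% of the TOP promoters and 56.3% of those of other hosts. TATA in the window was held by 5.88% of the TOP promoters and 18.8% of those of other hosts. Gas5 has a further annotated start at 161034601, with neither feature. TGACGTCA, the letters bound by CREB-family factors, was searched on both strands and was in 1.79% of all promoters. It was in the Gas5 promoter printed above, with its start at 161035166, and not in that of the further start. The Malat1 and Kcnq1ot1 promoters held no TATA in that window and had runs of 4 and 2 bases. These matches are descriptions and say nothing of which factor was bound.

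Gas5 (Entrez 14455, chr1:161034601-161038539, plus strand) encodes a transcript first found in growth-arrested cells. It had 284 estimated counts (FPKM 9.35) in the knockout library, against 399 counts (FPKM 13.0) in the wild type library, 1.64-fold lower (1.40 to 1.91). Its length-adjusted log2 ratio was -0.67 (-0.89 to -0.44), close to the unadjusted one. Among the 474 other genes of 2542 to 2744 bases, the median was -0.06 and 23 had a lower ratio than Gas5. All 5 genes nearest in length, Ciao3, Snx22, Adss, Arl6ip6 and Ccdc189, lay above it, at -0.41 to 0.12.

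The length of 2554 bases in the files belongs to a transcript with retained introns, which holds 6 of the 9 snoRNA genes of the locus within its exons. Of 25 Gas5 transcripts in GENCODE, 20 are classed as retained intron, and the other 5 have 346 to 665 bases. At 665 bases the length-adjusted log2 ratio of Gas5 was -0.33. Zbtb37, on the opposite strand, overlaps the start of Gas5 by 428 bases and had 12 counts in the knockout library and 15 in the wild type library.

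Snhg12 (Entrez 100039864, chr4:132308678-132311024, plus strand, 606 bases) had the lowest log2 ratio of the 6, -0.85. It had 108 estimated counts (FPKM 15.7) in the knockout library, against 168 counts (FPKM 24.1) in the wild type library, 1.81-fold lower (1.42 to 2.33). Of the 473 other genes of 109 to 825 bases, 34 had a lower ratio. The length-adjusted log2 ratio was -0.46 (-0.82 to -0.10). Its 5 nearest genes in length, Bvht, Rps14, Atp5j, Mgst2 and Smdt1, had log2 ratios of -0.69 to -0.28, all above that of Snhg12.

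Snhg1 (Entrez 83673, chr19:8723487-8726326, plus strand, 476 bases) differed least between the libraries. It had 105 estimated counts (FPKM 19.8) in the knockout library, against 112 counts (FPKM 20.8) in the wild type library. The ratio of 1.24-fold lower had an interval of 0.94 to 1.64, so a difference was not detectable at this depth. With the length trend subtracted the log2 ratio was 0.13 (-0.28 to 0.52). Snhg1 also lies on chromosome 19, 2.88 Mb from Neat1. Rpl22l1, Pin4, Uqcc2, Romo1 and Mrpl33, the nearest in length, had log2 ratios of -0.80 to -0.25.

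Per length, the order of the 6 RNAs differed between the libraries. By FPKM the order in the knockout library was Neat1, Snhg1, Snhg12, Malat1, Gas5 and Kcnq1ot1. In the wild type library it was Neat1, Snhg12, Snhg1, Gas5, Malat1 and Kcnq1ot1. Malat1 had 1.52 times the FPKM of Gas5 in the knockout library and 0.341 times in the wild type library. Snhg1 had 1.26 times the FPKM of Snhg12 in the knockout library and 0.864 times in the wild type library. Their estimated counts were low, at 105 and 108 in the knockout library and 112 and 168 in the wild type library. No interval was placed on these orders. FPKM keeps the length trend between the libraries, and the lengths used were 6982 bases for Malat1 and 2554 for Gas5.

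The snoRNAs carried by the hosts were barely counted. GENCODE places 21 snoRNA genes of 60 to 137 bases within the 3 hosts, 9 in Gas5, 8 in Snhg1 and 4 in Snhg12, and 1 gene of each host was listed in the files. These listed genes are printed below on the plus strand of GRCm38, with Snord99, which was not listed, added as a box C/D example from Snhg12. Capitals mark the C-box core TGATGA and the D-box CTGA of box C/D snoRNAs, which guide methylation of ribose, and the ACA box of Snora16a, an H/ACA snoRNA of the kind that guides pseudouridine formation.
Snord47 in Gas5, chr1:161038082-161038158: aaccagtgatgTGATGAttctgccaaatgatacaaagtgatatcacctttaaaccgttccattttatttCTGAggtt
Snord22 in Snhg1, chr19:8725866-8725991: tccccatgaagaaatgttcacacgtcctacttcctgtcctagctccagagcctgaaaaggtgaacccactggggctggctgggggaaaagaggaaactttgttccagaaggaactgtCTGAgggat
Snora16a in Snhg12, chr4:132309464-132309600: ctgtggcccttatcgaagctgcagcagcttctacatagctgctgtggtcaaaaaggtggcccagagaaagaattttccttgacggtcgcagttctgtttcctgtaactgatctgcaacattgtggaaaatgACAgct
Snord99 in Snhg12, chr4:132310691-132310764: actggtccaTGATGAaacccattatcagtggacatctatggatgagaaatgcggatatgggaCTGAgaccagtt
Snord47 had 0 counts in the knockout library and 1 in the wild type library, Snord22 had 3 in each, and Snora16a had 1 in the knockout library and 0 in the wild type library. All 30 snoRNA genes listed anywhere summed to 44 counts in the knockout library and 42 in the wild type library. With so few counts a difference in snoRNA level was not detectable, and why the counts were so few was not tested. The counted Gas5 transcript includes 6 of its snoRNA genes, so its count can hold their reads. On their own strand, TGATGA was present in 14 of the 21 genes, CTGA near the 3' end in 18, and both in 14.

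**Figure D4:**
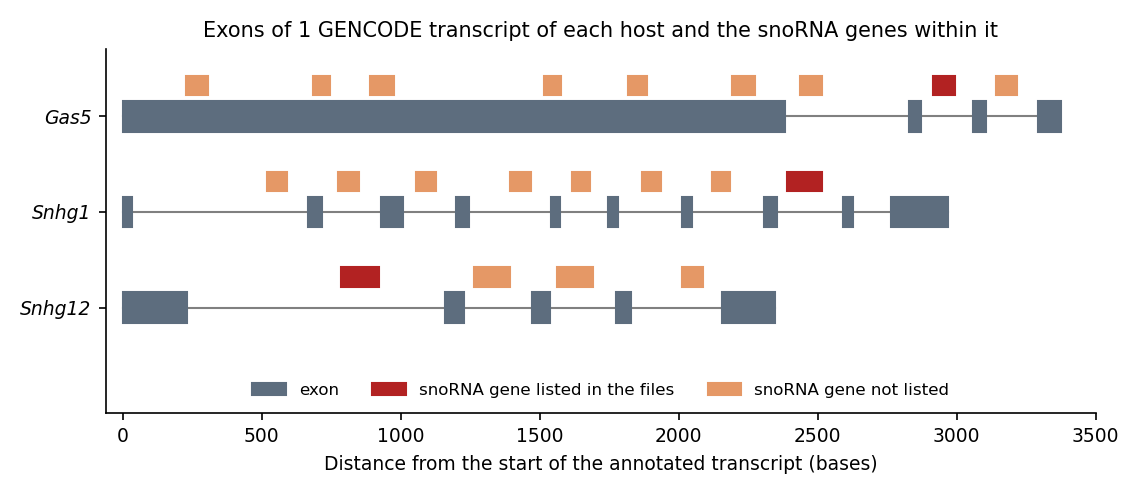
Exons (grey blocks) of 1 GENCODE transcript of each host, with distance from its start in bases, and the snoRNA genes within it above the line, red where listed in either library and orange where not. The drawn Gas5 transcript has a long first exon that covers 6 snoRNA genes, while the snoRNA genes of Snhg1 and Snhg12 lie in introns.

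Other host genes had log2 ratios of the same sign as Gas5 and Snhg12. Of 18 further snoRNA host genes, 17 were listed and 8 had at least 50 counts, of which 0 passed 2-fold upward and 1 downward, with a median log2 ratio of -0.63 against 0.00 over all genes, and all 8 were below 0. The adjusted median was -0.25, with 7 of 8 below 0 and 0 past 2-fold. Over all genes, 6.05% passed upward and 1.74% downward, or 2.14% and 1.9% after adjustment. Snhg6 had 250 counts in the knockout library and 475 in the wild type library, 2.21-fold lower (1.90 to 2.59), with an adjusted log2 ratio of -0.68. Zfas1 had 1071 counts in the knockout library and 1648 in the wild type library, 1.79-fold lower, and Epb41l4aos had 137 in knockout and 204 in wild type, 1.73-fold lower. Their adjusted log2 ratios were -0.48 for Zfas1 and -0.34 for Epb41l4aos. The shortest group of all genes had a median of -0.42. Library totals as the scaling gave the host list a median of -0.39, with 7 of 8 below 0, where the median of all genes was 0.24. The 14 protein-coding neighbours of the host genes with at least 50 counts had a median log2 ratio of -0.19, which was 0.05 with library totals and 0.02 after length adjustment. Of these, 1 passed 2-fold upward and 0 downward, and 0 passed after adjustment. The gene past 2-fold was Rc3h1, which encodes the RNA-binding protein Roquin-1, with 200 counts in the knockout library and 82 in the wild type library, 2.08-fold higher (1.61 to 2.74), and a length-adjusted log2 ratio of -0.07. Phactr4, a phosphatase and actin regulator gene, had a log2 ratio of 0.81 and an adjusted one of 0.49, and Cenpl, a centromere protein gene, had -0.69 and an adjusted -0.60.

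The TOP mRNAs encode ribosomal proteins and translation factors. All 44 lay between the thresholds, 41 were below 0, and the median log2 ratio was -0.49, or -0.17 with the length trend subtracted. With library totals the median was -0.25, with 40 of 44 below 0. Tpt1, the translationally controlled tumour protein gene, had 52010 counts in the knockout library and 75477 in the wild type library, a log2 ratio of -0.76 and an adjusted one of -0.44. Naca and Rps6, genes of a nascent chain binding complex and of the small ribosomal subunit, had log2 ratios of -0.64 and -0.61, and adjusted ones of -0.35 and -0.36. Core and assembly proteins of snoRNPs, the complexes that snoRNAs work in, had a median of -0.15 over 16 genes with 0 past 2-fold, which became 0.09 with library totals and 0.09 with FPKM. After length adjustment 8 lay above 0 and 8 below, with 0 past 2-fold and a median of 0.0058. Snu13, which binds the box C/D fold, had a log2 ratio of -0.59 and an adjusted one of -0.33. Nop10 of the H/ACA complex had -0.43 and an adjusted -0.06, and Naf1, an H/ACA assembly factor, had 0.35 and an adjusted 0.31.

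Of 17 nonsense-mediated decay factors, the pathway that removes spliced host RNAs, 2 passed 2-fold upward and 0 downward. Of all genes, 6.05% and 1.74% did, and the median log2 ratio of the factors was 0.24. After adjustment 1 passed upward and 0 downward, against 2.14% and 1.9% of all genes, with a median of 0.12. Smg1, the kinase that phosphorylates Upf1, had 634 counts in the knockout library and 182 in the wild type library, 2.98-fold higher (2.53 to 3.54), with an adjusted log2 ratio of 0.12 at a length of 15553 bases. Upf1, the helicase at the centre of the pathway, had 173 counts in the knockout library and 53 in the wild type library, 2.77-fold higher (2.05 to 3.88), with an adjusted log2 ratio of 1.13. Eif4a3, of the exon junction complex, had a log2 ratio of -0.85 and an adjusted one of -0.62 on 638 knockout and 988 wild type counts.

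The protein partners of the nuclear RNAs mostly lay between the thresholds. Of 20 paraspeckle protein genes, 1 passed 2-fold upward and 0 downward, against 6.05% and 1.74% of all genes. Their median log2 ratio was 0.13. After adjustment 1 passed upward and 0 downward, against 2.14% and 1.9% of all genes, with a median of 0.02. The gene past 2-fold was Sfpq, a core paraspeckle protein that binds Neat1, with 215 counts in the knockout library and 67 in the wild type library, 2.73-fold higher (2.08 to 3.68) and 1.46 on the adjusted log2 scale. Cpsf7, a cleavage factor subunit, had a log2 ratio of 0.82 and an adjusted one of 0.67. Smarca4, a chromatin remodeller gene, had 0.58 and an adjusted -0.03.

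Of 26 nuclear speckle and SR splicing genes, 3 passed 2-fold upward and 0 downward, against 6.05% and 1.74% of all genes. Their median was 0.28. After adjustment 2 passed upward, Acin1 and Srsf5, and 0 downward, against 2.14% and 1.9% of all genes, with a median of 0.24. Srsf5, an SR splicing factor gene named here after its value was seen, had a log2 ratio of 0.90 and an adjusted one of 1.12. The 3 past 2-fold before adjustment were Srrm2 and Son, the scaffold proteins of speckles, and Acin1, a splicing-associated protein. Srrm2 had 1174 counts in the knockout library and 321 in the wild type library, 3.13-fold higher (2.77 to 3.56), with an adjusted log2 ratio of 0.76. Son had 1359 counts in the knockout library and 528 in the wild type library, 2.21-fold higher (2.0 to 2.45), with an adjusted log2 ratio of 0.29. Acin1 had 392 counts in the knockout library and 119 in the wild type library, 2.81-fold higher (2.30 to 3.50), with an adjusted log2 ratio of 1.25.

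Other long non-coding RNAs had ratios on both sides of 0. Of 142 others with at least 50 counts, 9 passed 2-fold upward and 9 downward, with a median log2 ratio of -0.18. These were 6.34% in each direction, against 6.05% of all genes upward and 1.74% downward. After length adjustment 5 passed upward and 5 downward, with a median of -0.01. These were 3.52% in each direction, against 2.14% of all genes upward and 1.9% downward. Set against the other 147 long non-coding RNA genes, which include the rest of the 6, 4 had a higher ratio than Malat1, 9 a higher one than Neat1 and 13 a lower one than Snhg12. In a list of 27 well-studied long non-coding RNAs, 10 had at least 50 counts, 4 passed 2-fold upward and 0 downward, or 1 and 0 after adjustment, with a median of 0.32 and an adjusted median of 0.23. Xist, the 17918-base RNA that coats the inactive X chromosome, had 2006 counts in the knockout library and 471 in the wild type library, 3.65-fold higher, with an adjusted log2 ratio of 0.28. Tsix, its antisense partner, had 69 and 20 counts in knockout and wild type, 2.87-fold higher, with an adjusted log2 ratio of 1.24, and its reads cannot be told apart from those of Xist without strand. Firre, an X-linked nuclear RNA, had 96 counts in the knockout library and 35 in the wild type library, 2.32-fold higher, with an adjusted log2 ratio of 0.68.

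**Figure D5:**
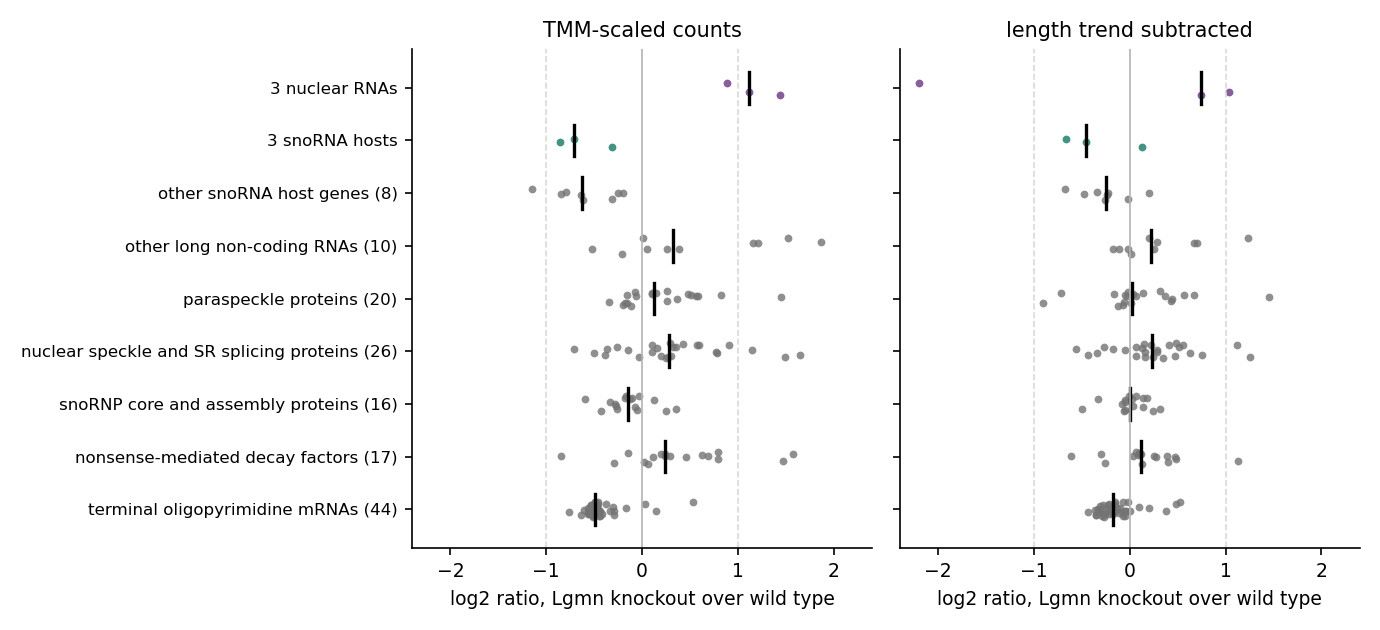
Log2 ratio of Lgmn knockout over wild type for the 6 RNAs and for 7 gene lists, with 1 point per gene and a bar at the median, from TMM-scaled counts (left) and with the length trend subtracted (right), the number of genes in parentheses and dashed lines at 2-fold. The host genes and the TOP mRNAs lie mostly below 0 on the left, with medians of -0.63 for the other hosts and -0.49 for the TOP mRNAs, and closer to 0 on the right.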

How the data were processed

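Total RNA of 1 Lgmn knockout and 1 wild type sample of co-cultured peritoneal macrophages was read on a BGISEQ-500, per the labels' protocols. For each Entrez gene, the deposited tables give an estimated count, an FPKM and a transcript length, per the file headers. The authors' estimated counts are not scaled between libraries, and the authors' FPKM is scaled to length and depth. Per the submitters' processing notes, RSEM, HISAT2, Bowtie2 and the mm10 build were used, with no version or order stated. A gene missing from a file was treated as having 0 counts, and the lowest deposited FPKM is 0.01.

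RefSeq (GRCm38.p6) gave symbols for 15561 of 15605 identifiers, and transcripts from GENCODE for GRCm38, the assembly of mm10. Estimated counts were rounded for TMM scaling in edgeR 4.0.16 (R 4.3.3), with factors of 1.09 for knockout and 0.921 for wild type, and 1 scaled count was added before ratios. Genes were compared if the higher library held 50 or more estimated counts, with 2-fold as the threshold and 95% exact Clopper-Pearson intervals. Of listed genes, 21.6% in the knockout and 20.3% in the wild type library had a fractional count, where RSEM divided reads, as did 4 of the 6 RNAs in each. The length adjustment subtracts a lowess trend of span 0.3. No test across samples is possible with 1 library per group. The genes named are the 6 RNAs, the 3 with the largest absolute ratio in each list, the 5 nearest each RNA in length, and Lgmn. Kcnq1, Zbtb37 and the snoRNA genes were added for their position at the 6 loci. Members and lists were chosen with earlier results of these data known. A simulation drew both libraries from the mean of these 2 with counting error alone. Only well-counted genes were changed, each by more than 2-fold, so most were bound to pass. There 200 of 200 changed genes passed 2-fold and 1 of 9089 unchanged ones. With a straight-line trend on log2 length added, 57 of 9300 unchanged genes passed before adjustment and 2 after it. The simulation checks the calculation and holds no variation between mice or preparations. DESeq2 1.42.0 gave an alternative scaling. Intervals used scipy 1.17.1, trends statsmodels 0.14.6 and tables pandas 2.3.3 with numpy 2.4.6, in Python 3.11.15, and figures matplotlib 3.10.9.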

Additional observations from a re-analysis of the deposited data

How the results depend on the processing

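No paired analysis was possible because each genotype had 1 library and the labels give no shared replicate numbers. The log2 ratios of Gas5 and Snhg12 were below 0, and that of Malat1 above 0, under all 12 settings that gave them a value, with ranges of -0.71 to -0.33, -0.86 to -0.43 and 0.74 to 1.68. Snhg1 ranged over -0.31 to 0.15, Kcnq1ot1 over -2.20 to 1.12 and Neat1 over -0.60 to 1.36. The value of -0.60 for Neat1 was its length-adjusted ratio at 20771 bases, a setting chosen after seeing the data, under which Gas5 was also placed at 665 bases. There 0 of the 6 genes passed 2-fold upward and 1 downward, and 202 of all genes passed upward. Removing the trend gave 1 of the 6 higher and 1 lower, with 203 higher genes in all at a span of 0.3 and 197 at 0.6, and removing the median of each length group gave 1 higher, with 209 in all. A 1.5-fold threshold was passed upward by Malat1, Neat1 and Kcnq1ot1 and gave 2 of the 6 lower, Gas5 and Snhg12. Of all 9498 genes, 1562 were higher and 607 lower at that threshold. A 4-fold threshold gave 0 of the 6 higher, with 40 genes higher and 45 lower in all. Library totals gave 1036 genes higher and 107 lower (90.6% higher), and FPKM 936 and 102 (90.2%), against 575 and 165 (77.7%) with TMM. These scalings moved the median of all genes by 0.24 and 0.23. A minimum of 10 counts gave 921 and 436, of 200 counts 273 and 67, and no minimum 1458 and 1531. Of the ratios of the 6 RNAs recomputed under other settings, 40 stayed within their counting interval and 25 moved out of it. The remaining 1, that of Neat1, reversed from past 2-fold. A change of sign in a ratio that had not passed 2-fold was not counted as reversed. Kcnq1ot1 was below 0 in 4 of 12 settings, and at least 2-fold lower in 3 of them. Those 3 all subtract a lowess trend extended past every other gene, so they are not separate support. Snhg1 was above 0 in 4 of 12. Of the list counts, 469 stayed within 1.5 times and 75 moved. Low counts limit Snhg1 and the snoRNAs most, and variation between mice was not measured.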
